A study of Mus musculus with 24 samples.

Results

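The genes described here encode chromatin proteins, and most of them lie in the part of mouse chromosome 16 that is present in an extra copy in the Ts1Cje mouse. They were chosen by name: Hmgn1, Brwd1, Chaf1b, Morc3, Setd4 and Prdm15 from the trisomic segment, and Hmgn2, Hmgn3 and Chaf1a as relatives on other chromosomes, present in the usual number of copies. Of these 9 genes, 8 had a probe set that named them alone, among 13660 genes named so on the 2 array designs. They had 10 of the 24833 probe sets. Brwd1 and Prdm15 had 2 probe sets each. Hmgn2 appeared only on a probe set annotated to 4 genes, and no value is given for it. All 10 probe sets passed the filter on low intensity.

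Total RNA from mouse brain had been hybridised to the Affymetrix MGU74A and MGU74B arrays, called array A and array B here. The groups were 2N mice, with the normal chromosome complement, and Ts1Cje mice, with 6 samples per genotype on each array design and 24 arrays in all. Ts1Cje mice carry an extra copy of distal chromosome 16, from next to Sod1 onward, translocated onto distal chromosome 12, with Sod1 itself disrupted on that copy. The model therefore holds only part of the mouse counterpart of human chromosome 21. The labels give brain as the tissue, with neither region, age, sex nor strain background, and whether each sample is a separate animal is not said. The p-values therefore cover only the variation from sample to sample, some of which may be technical. The sample titles carry the numbers 1 to 6 in each genotype and on each array, and the labels leave unsaid whether equal numbers share RNA.

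DNA in the nucleus is wound around histones into nucleosomes, and the proteins encoded by these genes bind, read, modify or assemble them. The HMGN proteins bind directly to the nucleosome core, compete with the linker histone H1 and loosen the packing of chromatin, and they are abundant in neural progenitors of the developing brain. Brwd1 carries bromodomains, which recognise acetylated histones, and WD repeats. Chaf1a and Chaf1b are the large and middle subunits of chromatin assembly factor 1, which deposits histones H3 and H4 onto newly copied DNA. Morc3 is a nuclear ATPase associated with PML bodies, Setd4 belongs to the SET-domain methyltransferases, and Prdm15 is a zinc finger transcription regulator with a PR domain.

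Along chromosome 16 the reference annotation places the trisomic members in the order Setd4, Morc3, Chaf1b, Brwd1, Hmgn1 and Prdm15 among 73 protein-coding genes distal to Sod1. Morc3 and Chaf1b are direct neighbours, with 0 protein-coding genes between them, and so are Brwd1 and Hmgn1. The promoters of Hmgn1 and Brwd1 are shown because these neighbours were the members that passed the test of genotype. Each sequence runs 5′ to 3′ on the gene's own strand over 300 bases, from 250 before the start of the gene, and comes from RefSeq on GRCm38.p6. Capitals mark CCAAT (the core recognised by NF-Y) or GGGCGG (the core recognised by Sp1), on either strand.
Hmgn1, minus strand, chr16:96127676-96127975: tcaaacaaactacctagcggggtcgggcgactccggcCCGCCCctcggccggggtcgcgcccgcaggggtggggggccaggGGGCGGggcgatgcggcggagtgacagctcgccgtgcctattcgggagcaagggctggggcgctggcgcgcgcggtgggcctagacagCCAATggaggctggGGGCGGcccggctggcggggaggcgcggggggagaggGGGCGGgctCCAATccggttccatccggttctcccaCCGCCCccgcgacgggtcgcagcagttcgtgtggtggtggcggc
Brwd1, minus strand, chr16:96082379-96082678: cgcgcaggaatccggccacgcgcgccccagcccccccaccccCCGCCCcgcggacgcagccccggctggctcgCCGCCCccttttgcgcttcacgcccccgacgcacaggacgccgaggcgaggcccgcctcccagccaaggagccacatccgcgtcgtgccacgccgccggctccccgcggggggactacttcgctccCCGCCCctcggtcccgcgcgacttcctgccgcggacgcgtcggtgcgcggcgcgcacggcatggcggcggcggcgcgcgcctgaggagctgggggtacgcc
The Hmgn1 window held CCAAT 2 times and GGGCGG 5 times, with no overlap between them. The Brwd1 window held GGGCGG 3 times, all on the opposite strand, and CCAAT 0 times. Of all 32851 promoter windows of this length, 37.4% held CCAAT and 35.7% held GGGCGG. Both windows were rich in CpG dinucleotides, with 37 in Hmgn1 and 52 in Brwd1 against a median of 7 over all windows. The letters CCGGAA (an ETS core), TGACGTCA (a cyclic AMP response element) and TATAAA were searched on both strands too and were in neither window. CCGGAA was present 2 times in each of the Chaf1b, Setd4 and Chaf1a windows and in 1 of the 2 Prdm15 windows, and it was in 14.9% of all windows. TGACGTCA was in 1.79% of all windows and TATAAA in 13.6%. These matches are letters in a window and were not measured as binding. Promoter entries matched 8 of the 9 members.

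Hmgn1 and Brwd1 rose in Ts1Cje brain, and the other members did not pass the test. Hmgn1 was 1.30-fold and Brwd1 1.62-fold as high as in 2N brain. Morc3, Chaf1b, Setd4 and Prdm15 also had estimates above 0, between 1.05-fold and 1.38-fold, with wide errors. The disomic Hmgn3 was level between the genotypes, and the disomic Chaf1a had an imprecise estimate below 0. Intensities are linear, in arbitrary units after quantile normalisation within an array design, and differences are log2 of Ts1Cje over 2N from limma. To pass, a probe set needed an adjusted p under 0.05, by the Benjamini-Hochberg method over its whole table. On array A 1 of 3 trisomic member probe sets passed, where 0.0966% of the 9316 tested probe sets passed, all higher in Ts1Cje. On array B 1 of 5 passed, where 0.0645% of 9308 did, again all higher. Over all 8 trisomic member probe sets the median difference was 0.40, against medians of -0.0042 on array A and -0.0035 on array B over all probe sets tested. All 8 were above 0, as were 48.9% (array A) and 49.3% (array B) of tested probe sets. The plot of intensities by sample shows each probe set.

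**Figure D1:**
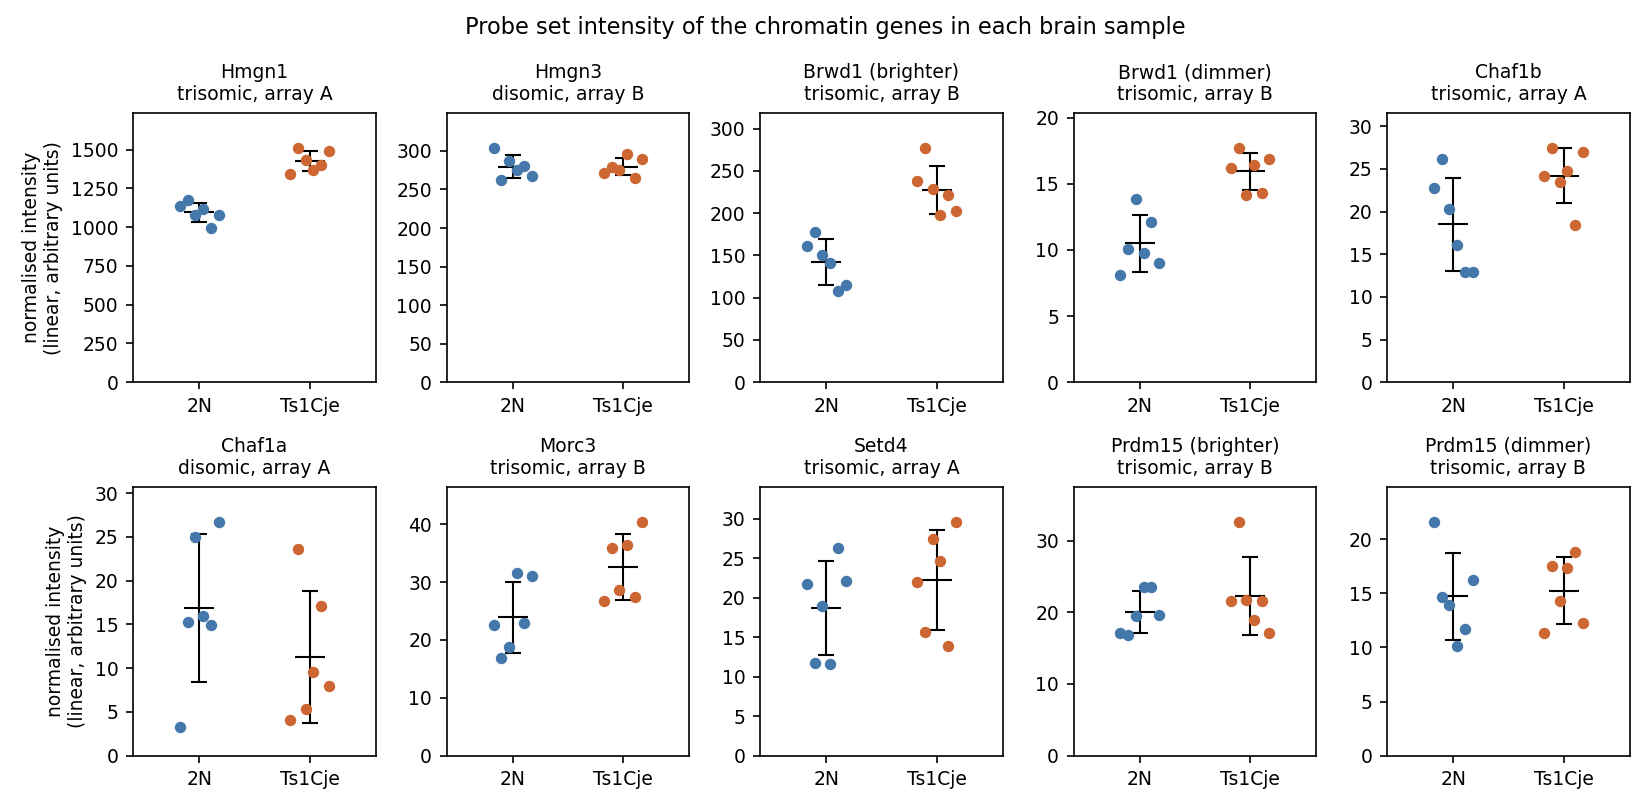
Normalised intensity (linear, arbitrary units, each axis from 0) of the 10 probe sets in each 2N (blue) and Ts1Cje (orange) brain sample, ordered from left to right by replicate number. Black bars are the mean and SD of 6 samples. Hmgn1 and both Brwd1 probe sets show 6 of 6 Ts1Cje samples above all 2N samples, while the groups overlap for the others.

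Hmgn1 was the brightest of the members on array A, brighter than 99.4% of the probe sets there. In 2N brain its intensity had a lowest value of 997, a median of 1100 and a highest value of 1177. In Ts1Cje brain the lowest was 1346, the median 1419 and the highest 1510. The groups did not overlap, with the lowest Ts1Cje sample above the highest 2N sample. The means were 1098 ± 61.5 in 2N and 1426 ± 65.3 in Ts1Cje (SD, n = 6 each), which is 0.38 on the log2 scale (SE 0.054, 95% interval 0.26 to 0.49, adjusted p = 0.0054 by limma). The interval corresponds to 1.20-fold to 1.41-fold and lay below the 1.5-fold ratio of 3 copies to 2. Among 48 other measured genes of the segment, 4 had an interval that likewise ended below 1.5-fold, and for 1 of these it also lay above 0. The rise of Hmgn1 passed in all 12 fits with 1 sample left out (0.35 to 0.39, limma adjusted p from 0.0037 to 0.022).

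After normalisation the Hmgn1 samples lay close together. The coefficient of variation was 5.60% in 2N and 4.58% in Ts1Cje. As deposited, before normalisation, Hmgn1 ran from 798 to 1451 in 2N and from 896 to 1651 in Ts1Cje, and 3 Ts1Cje samples exceeded the highest 2N sample. On array A the brightest array had a trimmed mean 2.10 times that of the dimmest. Without normalisation between arrays the Hmgn1 difference was 0.31 and did not pass (limma adjusted p = 0.9999). Without the trend of variance with intensity in the fit, the difference stayed at 0.38 and did not pass either (limma adjusted p = 0.17).

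Brwd1 was also bright, brighter than 98.5% of the probe sets on array B. Its brighter probe set had a lowest value of 107, a median of 146 and a highest value of 178 in 2N brain. In Ts1Cje brain the lowest was 198, the median 225 and the highest 277. Here too the groups did not overlap after normalisation. As deposited they overlapped, at 88.7 to 230 in 2N and 147 to 345 in Ts1Cje. Only 2 Ts1Cje samples then exceeded the highest 2N sample. The normalised means were 142 ± 27.2 and 227 ± 28.7 (SD, n = 6 each), which is 0.69 on the log2 scale (SE 0.12, 95% interval 0.45 to 0.94, adjusted p = 0.021 by limma). The interval, 1.36-fold to 1.92-fold, held the 1.5-fold ratio. In both genotypes replicates 1, 2 and 3 were the highest samples, at 162, 178 and 151 in 2N and 238, 277 and 228 in Ts1Cje. Replicates 1 and 2 were also the brightest arrays of array B as deposited in each genotype, at 1.47 to 1.86 times the trimmed mean of the dimmest array, and the part of this in the Brwd1 values was not tested. The call was lost in 7 of 12 fits with 1 sample left out, namely without 2N replicates 4, 5 or 6 or Ts1Cje replicates 1, 2, 3 or 5. The adjusted p over the 12 fits ran from 0.012 to 0.078, and the difference from 0.62 to 0.76. The call was lost too without the filter on low intensity (adjusted p = 0.12 by limma), without the variance trend (0.46) and without normalisation between arrays (0.99996).

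The dimmer Brwd1 probe set, on the same array, was near the middle of the table, at 10.5 ± 2.13 in 2N and 15.9 ± 1.42 in Ts1Cje (SD, n = 6 each). Its values ran from 8.09 to 13.9 in 2N and from 14.2 to 17.7 in Ts1Cje. Again the lowest Ts1Cje sample was above the highest 2N sample. Unlike in the brighter probe set, the groups were separate in the deposited values as well, at 7 to 11.4 in 2N and 12.6 to 22.6 in Ts1Cje. The log2 difference was 0.62 (SE 0.18, 95% interval 0.23 to 1.01) and missed the threshold (limma adjusted p = 0.93). Both Brwd1 probe sets are from the same hybridisations, so they are not independent samples. Of the 8 trisomic member probe sets, 3 had every Ts1Cje sample above every 2N sample, 1 on array A and 2 on array B. This held for 0.193% of all tested probe sets on array A and also 0.193% on array B.

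**Figure D2:**
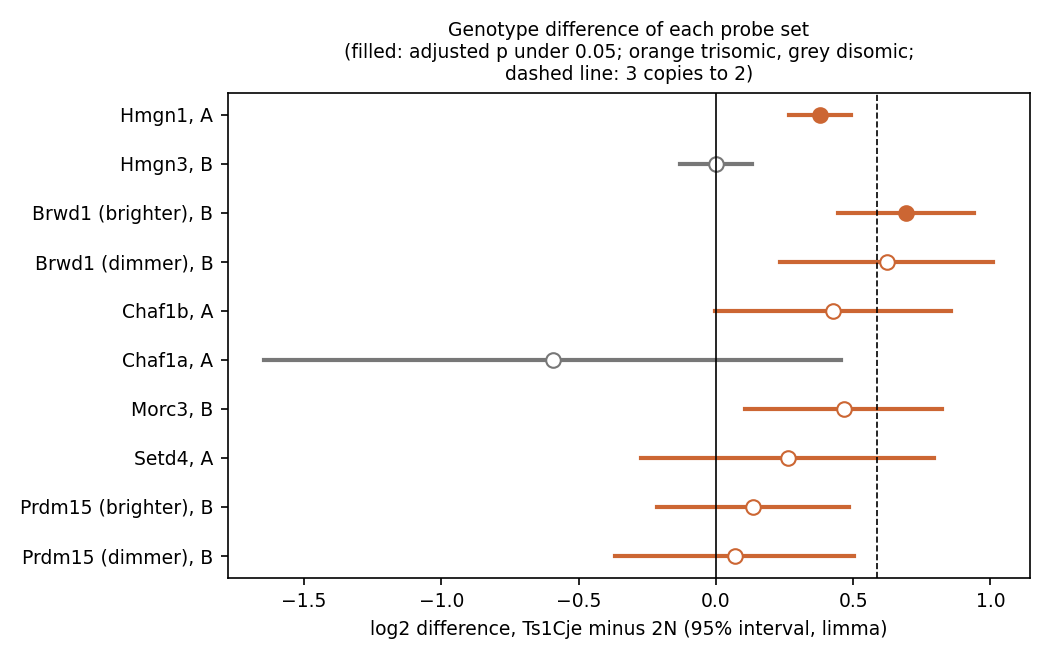
Log2 difference in intensity, Ts1Cje minus 2N, for each probe set with its 95% interval from limma (n = 6 per genotype); A and B name the array. The filled points, Hmgn1 at 0.38 and the brighter Brwd1 probe set at 0.69, passed at an adjusted p under 0.05. Orange marks trisomic and grey disomic genes, and the dashed line is the ratio of 3 copies to 2.

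Hmgn3, the disomic relative of Hmgn1, was a bright gene measured with small error, brighter than 99.3% of the probe sets on array B. Its lowest, median and highest intensities were 262, 278 and 304 in 2N and 265, 277 and 296 in Ts1Cje. The groups overlapped almost fully. The means were 279.5 ± 14.95 and 279.5 ± 11.3 (SD, n = 6 each), which is 0.00073 on the log2 scale (SE 0.063, adjusted p = 0.999 by limma). The 95% interval of -0.13 to 0.13 excluded a 1.5-fold rise. Hmgn1 and Hmgn3 were on different array designs, normalised apart, so their differences were not tested against each other.

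The subunits of chromatin assembly factor 1 were both near the middle of the table on array A, at intensity percentiles of 54.5 (Chaf1b) and 45.8 (Chaf1a). Chaf1b, the trisomic middle subunit, had a lowest value of 12.9, a median of 18.2 and a highest value of 26.1 in 2N, and 18.4, 24.5 and 27.4 in Ts1Cje. All 6 Ts1Cje samples lay above the 2N median and 2 above all 2N samples, so the groups overlapped. The log2 difference was 0.43 (SE 0.20, 95% interval -0.0035 to 0.86, limma adjusted p = 0.99), an interval that held both no change and 1.5-fold.

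Chaf1a, the disomic large subunit, was the most variable member. It had a lowest value of 3.23, a median of 15.6 and a highest value of 26.8 in 2N, and 4.05, 8.75 and 23.6 in Ts1Cje. Its coefficient of variation was 50.1% in 2N and 67.3% in Ts1Cje. The log2 difference was -0.59 (SE 0.50, 95% interval -1.64 to 0.46, limma adjusted p = 0.99), and replicate 1 was the lowest sample in both genotypes. Without Ts1Cje replicate 1 the difference was -0.36, and without 2N replicate 1 it was -1.01. Chaf1b and Chaf1a were the one pair of relatives on the same array. Their log2 differences differed by 1.02 (SE 0.69, two-sided exact permutation p = 0.17 over 924 splits, n = 6 per genotype). Without 2N replicate 1, in which Chaf1a was at 3.23, this was 1.51 (exact permutation p = 0.026), and among replicates 1 and 2 it was -0.40 (exact permutation p = 0.67).

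Morc3, the neighbour of Chaf1b, had a lowest value of 16.8, a median of 22.8 and a highest value of 31.5 in 2N, and 26.6, 32.2 and 40.4 in Ts1Cje. All 6 Ts1Cje samples lay above the 2N median and 3 above all 2N samples. The log2 difference of 0.46 (SE 0.17, 95% interval 0.11 to 0.82) missed the threshold (limma adjusted p = 0.996). An unadjusted limma p under 0.05, which is the same as an interval that excludes 0, was reached by 4 of 8 trisomic member probe sets, namely those of Hmgn1, Morc3 and both of Brwd1. Over all tested probe sets the share was 3.63% (array A) and 4.24% (array B) in either direction, and 1.91% and 2.14% higher in Ts1Cje.

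Setd4 and Prdm15 had the smallest differences among the trisomic members. Setd4 ran from 11.6 to 26.2 around a median of 20.3 in 2N and from 13.9 to 29.6 around 23.3 in Ts1Cje. Its log2 difference was 0.26 (SE 0.25, 95% interval -0.27 to 0.80, limma adjusted p = 0.99), which held both no change and 1.5-fold. With 1 sample left out it ran from 0.14, without 2N replicate 2 or 4, to 0.38, without Ts1Cje replicate 5.

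The brighter Prdm15 probe set ran from 16.9 to 23.5 around a median of 19.6 in 2N and from 17.1 to 32.7 around 21.6 in Ts1Cje. Its log2 difference was 0.14 (SE 0.17, 95% interval -0.21 to 0.49). The dimmer one ran from 10.1 to 21.6 around 14.3 in 2N and from 11.3 to 18.8 around 15.8 in Ts1Cje, a log2 difference of 0.07 (SE 0.21, 95% interval -0.37 to 0.50, limma adjusted p = 0.996 for each). Both intervals held 0 and ended below 1.5-fold, but neither value was stable across samples. The brighter probe set was at 0.65, above the 1.5-fold line, among replicates 1 and 2 and at -0.12 among replicates 3 to 6. Without Ts1Cje replicate 2, its highest sample, it was at 0.02, and over all fits with 1 sample left out it ran up to 0.21. The dimmer probe set was at -0.34 among replicates 1 and 2 and at 0.27 among replicates 3 to 6. It ran from -0.030 without 2N replicate 4 to 0.19 without 2N replicate 1.

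Differences between members were tested within each array design, for the 12 pairs that shared one, each gene by its brightest probe set. Chaf1b with Chaf1a was the planned pair, and the other 11 were added after the data were seen. After adjustment over the pairs 0 of 12 passed by the two-sided exact permutation test, and 3 had an unadjusted p under 0.05. Brwd1 stood 0.69 above Hmgn3 (95% interval 0.37 to 1.01, exact permutation p = 0.0043, adjusted 0.052). Brwd1 stood 0.56 above Prdm15 (0.11 to 0.999, exact permutation p = 0.022, adjusted 0.13). Morc3 stood 0.46 above Hmgn3 (0.069 to 0.86, exact permutation p = 0.032, adjusted 0.13). Chaf1b and Hmgn1 differed by 0.049 (-0.33 to 0.42, exact permutation p = 0.77, adjusted 0.77), an interval that leaves room for sizeable differences in both directions. The smallest p that 924 splits can give is 0.0022.

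**Figure D3:**
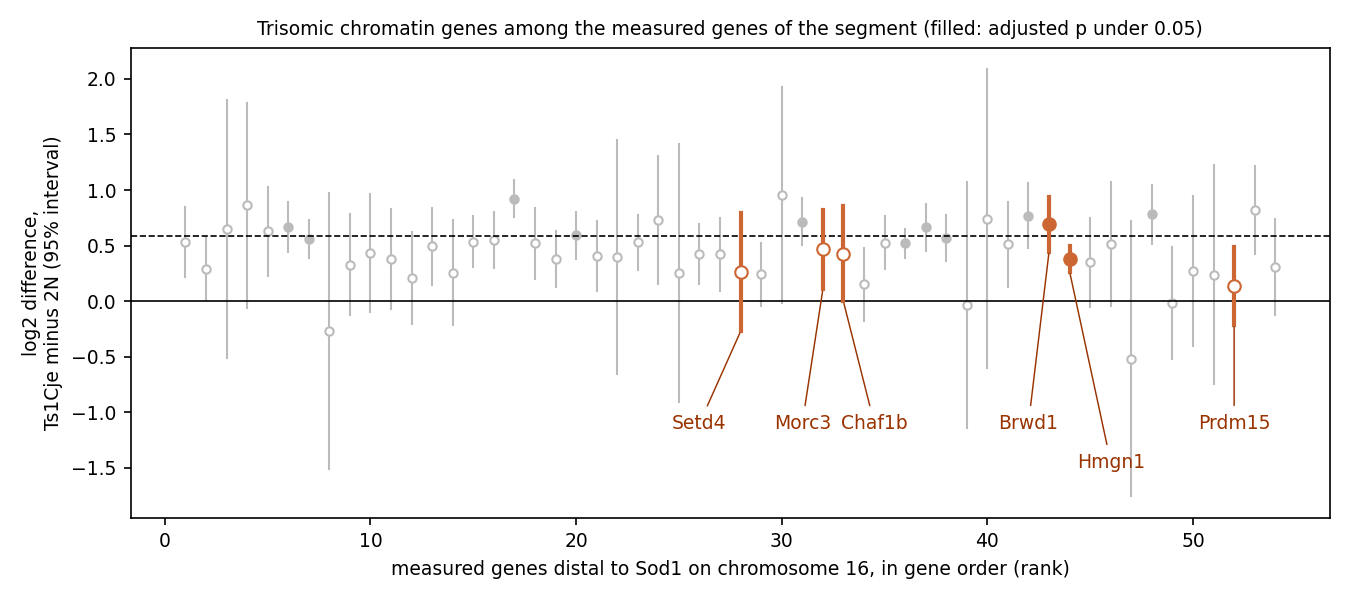
Log2 difference, Ts1Cje minus 2N, with 95% interval from limma for the 54 measured genes distal to Sod1, in gene order from Sod1 to the end of chromosome 16 (rank, not distance). Genes tested on both designs are shown by their brightest array A probe set. The 6 trisomic chromatin genes are orange and the 48 others grey; filled points passed at an adjusted p under 0.05, and the dashed line is the ratio of 3 copies to 2. Brwd1 and Hmgn1, side by side, are both filled, while Morc3 and Chaf1b, also side by side, are both open.

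The 6 trisomic chromatin genes were all above 0, with a median log2 difference of 0.40 over their brightest probe sets, and 2 of them passed. Among the 48 other measured genes distal to Sod1, 44 were above 0, the median was 0.51 and 10 passed (limma). A gene tested on both designs was represented by its brightest array A probe set. Ifngr2 thus counts as not passed, at 0.26 (limma adjusted p = 0.99). An array B probe set of Ifngr2 was at 0.76 and passed (limma adjusted p = 0.016). The interval held 1.5-fold for 4 of the 6 and ended below it for Hmgn1 and Prdm15. Whether the chromatin genes differ from the rest of the segment was not tested. In brain RNA, a change in the number of cells of a type and a change in RNA per cell cannot be told apart.

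Replicates 1 and 2 were compared with replicates 3 to 6. Deviations from the genotype means correlated across genotypes at a mean of 0.063 within replicates 1 and 2 and -0.038 between the sets on array A, and at 0.075 and -0.037 on array B. Deviations sum to 0 within a genotype, so correlations above 0 in some pairs bring others below 0. Same-numbered samples are among the pairs within replicates 1 and 2. A difference between the sets and a pairing by number therefore cannot be told apart here. Among replicates 3 to 6 the Hmgn1 difference was 0.42 (limma adjusted p = 0.013) and that of the brighter Brwd1 probe set 0.74 (limma adjusted p = 0.061). Among replicates 1 and 2, with 2 samples per genotype, they were 0.30 and 0.60 (limma adjusted p = 0.98 and 0.55). The direction of both was the same in both sets.

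The probe sets most like Hmgn1 over the 12 arrays of its design were those of Son, Paxbp1, Itsn1, Pf4 and Ttc3, with Pearson correlations of 0.91, 0.89, 0.89, 0.87 and 0.87. Of these 5 genes, 4 lie in the trisomic segment, which holds 54 of the 11483 genes measured over both designs. Correlations over all 12 arrays include the genotype difference. The rankings for Hmgn1 and for Brwd1 therefore favour genes that differ between the genotypes. With the genotype means taken out, the correlations were -0.11, -0.03, 0.35, 0.38 and -0.24, so the likeness to Son, Paxbp1 and Ttc3 lay in the genotype difference. Those most like Brwd1 were Zdhhc3, Ifngr2, Synj1, Mrps6 and Tpp1, at 0.90, 0.90, 0.89, 0.87 and 0.87, of which Ifngr2, Synj1 and Mrps6 lie in the segment. Here the correlations within genotype stayed at 0.71, 0.64, 0.58, 0.58 and 0.68. All points in these comparisons share hybridisation and scaling, and the values are descriptions of 12 arrays chosen from all tested genes of the table.

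**Figure D4:**
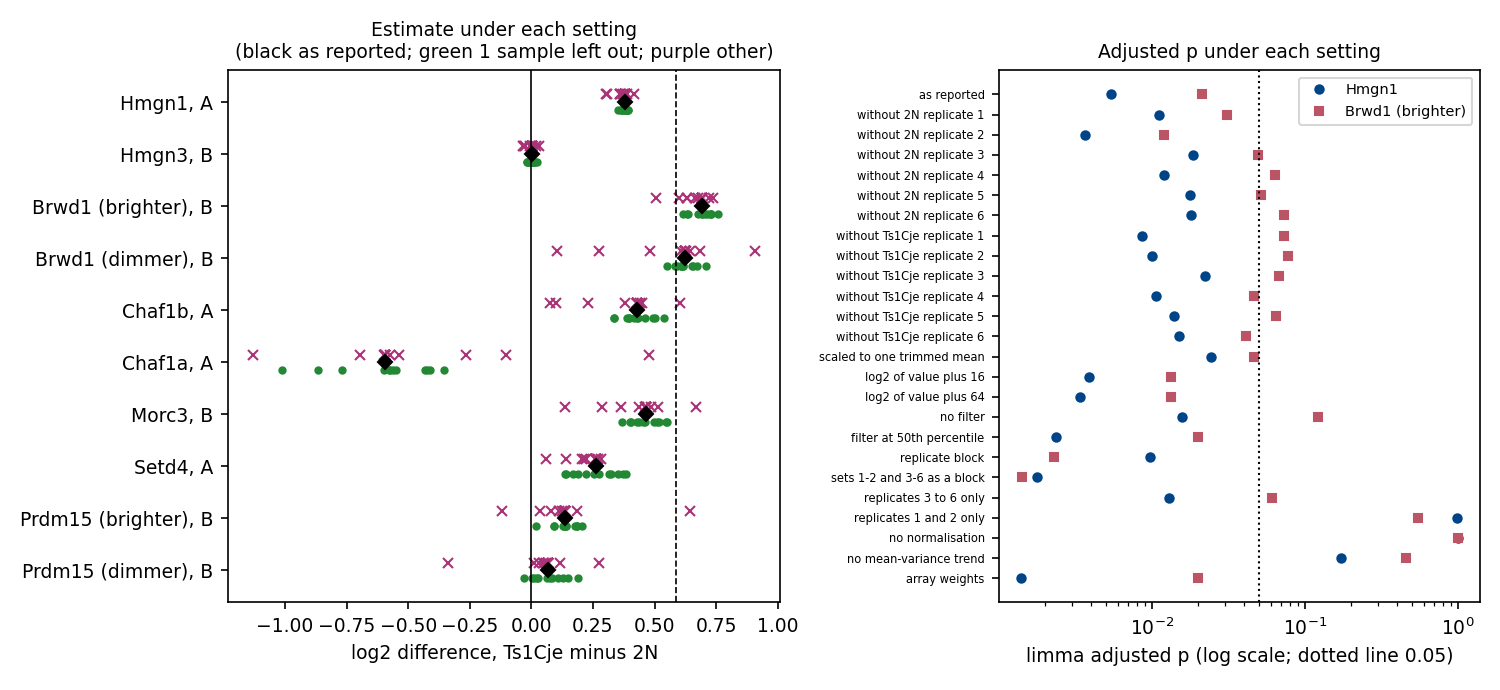
Left, log2 difference of each probe set as reported (black), with 1 sample left out (green) and under the other settings (purple); the solid line is 0 and the dashed line the ratio of 3 copies to 2. Right, limma adjusted p of Hmgn1 and of the brighter Brwd1 probe set under each setting on a log scale, with 0.05 dotted. Hmgn1 stays left of the line in every fit with 1 sample left out, and Brwd1 crosses it in 7 of 12.

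Other chromatin genes were read from 8 lists of relatives, partners and linked genes. Of their 111 measured genes 0 passed in either direction (limma), and 1 reached an unadjusted p under 0.05, or 0.901% against 3.67% of all 11483 measured genes. Their median log2 difference was -0.02, beside -0.0038 over all genes. The gene with the unadjusted p under 0.05 was Setd6, a SET-domain relative of Setd4, at -0.46 (SE 0.14, limma adjusted p = 0.89), named after its value was seen.

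By family, 8 of 13 HMG proteins were measured and their median difference was -0.18. Their brightest members were Hmgb3, a DNA-bending HMG-box protein, at -0.04 (SE 0.068), and the ribosomal DNA transcription factor Ubtf at -0.10 (SE 0.10). Of the histone chaperones and partners of chromatin assembly factor 1, 24 of 28 were measured, with a median of -0.04. Npm1, a nucleolar histone chaperone, was at -0.09 (SE 0.069) and Nap1l5, of the nucleosome assembly protein family, at -0.05 (SE 0.081). Of the bromodomain and WD-repeat relatives of Brwd1, 27 of 31 were measured, with a median of 0.03. The corepressor Trim28 was at -0.09 (SE 0.062) and the remodelling ATPase Smarca4 at -0.06 (SE 0.070).

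Of the MORC relatives and PML body genes, 6 of 12 were measured, with a median of -0.0087. Sumo3, a small ubiquitin-like modifier, was at 0.03 (SE 0.062) and Morc2a at 0.01 (SE 0.099). Of the SET-domain methyltransferases, 24 of 31 were measured, with a median of 0.03. Ehmt2, a histone H3 lysine methyltransferase, was at 0.09 (SE 0.11) and Kmt2e at -0.06 (SE 0.15). Of the PRDM relatives, 4 of 14 were measured, with a median of -0.23. Prdm2 was at -0.33 (SE 0.18), and Mecom, which was below the median intensity of array A, was at -0.81 (SE 0.48).

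Of the core and variant histones, 10 of 15 were measured, with a median of -0.04. Macroh2a2, a macroH2A variant, was at -0.06 (SE 0.060) and the linker histone gene H1f10 at -0.10 (SE 0.12). Of the genes linked to HMGN proteins in earlier work, 9 of 12 were measured, with a median of -0.04. These include Olig2, which lies in the trisomic segment and was at 0.33 (SE 0.22). Cdh2, which encodes N-cadherin, was at -0.04 (SE 0.094) and the glycine transporter gene Slc6a9 at 0.05 (SE 0.10). Each of these named list genes had a limma adjusted p of 0.99 or higher.

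The tissue label was checked against marker genes. All 10 neuronal markers were measured, from Tubb3 at 2673 in 2N and 2804 in Ts1Cje down to Nefm at 35.6 and 31.2. Of 8 neural progenitor markers 7 were measured, from Fabp7 at 1086 and 1088 down to Vim at 11.8 and 11.2. The myelin gene Mbp was at 36.3 and 34.4. Median log2 differences were 0.04 for astrocyte, -0.06 for oligodendrocyte, -0.16 for microglia and 0.18 for endothelial markers. They were -0.17 for blood and -0.06 for meninges and fibroblast markers, and in each of these lists 0 genes passed (limma). Of the markers of proliferating cells, in which chromatin assembly factor 1 is used, 19 of 22 were measured, 4 of them above 0. Their median was -0.14, with 0 passed (limma) and 1 at an unadjusted p under 0.05. Their summed intensity ran from 711 to 873 in 2N and from 646 to 834 in Ts1Cje, and none was at or under the floor on every array. Pituitary markers had a median of 0.29 over 6 measured genes, all above 0, with 0 passed (limma) and 1 at an unadjusted p under 0.05. Their summed intensities were 61.2 to 124 in 2N and 95.5 to 129 in Ts1Cje. Skeletal muscle markers had a median of 0.51 over 5 measured genes, 4 of them above 0, with 0 passed and 0 at an unadjusted p under 0.05 (limma), and summed intensities of 36.9 to 64.9 in 2N and 53.8 to 77.8 in Ts1Cje. Choroid plexus markers had a median of 0.36 over 3 measured genes, all above 0, with 0 passed (limma) and 1 at an unadjusted p under 0.05, namely Clic6, which lies in the trisomic segment. The 2 of them on array A had summed intensities of 148 to 451 in 2N and 186 to 344 in Ts1Cje. The part of these cell types in the values of the chromatin genes was not tested.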

How the data were processed

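The deposited values are intensities, 1 per probe set and array, linear and not evidently normalised between arrays; the summarising software and its version were not stated in any source read here. The members and gene lists were chosen with earlier results of these data known. Scripts left out 66 control probe sets per table. Arrays whose 2% trimmed means differed by over 5% within a table were quantile normalised, values under the 10th percentile (1.47 on array A, 1.13 on array B) were set to it, before taking log2. Probe sets whose mean fell below the 25th percentile were dropped, leaving 9316 (A) and 9308 (B) for limma 3.58.1 in R 4.3.3 (lmFit, eBayes with a mean-variance trend, genotype only). Errors are SD over 6 samples or limma standard errors.

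Probe set names came from the platform annotation, and gene order from GRCm38.p6. In counts and medians over genes, a gene was represented by its brightest tested probe set, from array A where it had one there. All members were named, with the 2 brightest genes of each chromatin list and the 5 genes most like Hmgn1 and Brwd1. Setd6, Clic6 and Olig2 were named outside this rule, with their values known. Of the neuronal and progenitor markers the brightest and dimmest measured were named, and of the oligodendrocyte markers Mbp alone. Of 4 planned pairs of members, 1 lay on a single array. Same-numbered samples of the genotypes had deviations correlated at 0.017 to 0.077 on array A and 0.013 to 0.11 on array B, so the numbers were not taken to pair samples. Simulated tables each held 100 probe sets changed 1.5-fold and 100 changed 2-fold. In them the fit recovered 45% (array A) and 27% (array B) of those changed 1.5-fold. Only 9 (array A) and 6 (array B) probe sets passed in the real tables. A larger number of changed probe sets makes the Benjamini-Hochberg threshold easier to pass. These shares may therefore overstate the chance of a call for the members. Alternatives changed normalisation, floor, filter, variance model, blocks, threshold and samples. The number of arrays limits the precision.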

Additional observations from a re-analysis of the deposited data

Results flagged for a closer look

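Of 20 groups of 6 values (10 probe sets in 2 genotypes), 2 held a sample far from the rest. This was by Dixon's criterion on log2 values, where chance gives about 1 in 20. The values given below are linear intensities. In 2N brain on array A, Chaf1a in replicate 1 was at 3.23, and the other samples lay between 14.97 and 26.8. In Ts1Cje brain on array B, the brighter Prdm15 probe set in replicate 2 was at 32.7, and the other samples lay between 17.1 and 21.8.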

How the results depend on the processing

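The Hmgn1 difference lay between 0.30 and 0.42 and that of the brighter Brwd1 probe set between 0.50 and 0.76 over the 26 alternatives run for each, all above 0; Hmgn1 passed in 23 and Brwd1 in 14. The number of member probe sets called fell from 1 to 0 on both arrays without normalisation between arrays, without the mean-variance trend (limma adjusted p = 0.17 for Hmgn1 and 0.46 for Brwd1) and among replicates 1 and 2. On array B it was also 0 without a filter (limma adjusted p = 0.12) and among replicates 3 to 6. With 1 sample left out it was 1 to 1 on array A and 0 to 1 on array B. With the replicate number as a block, Hmgn1 stayed at 0.38 (limma adjusted p = 0.0097) and Brwd1 at 0.69 (limma adjusted p = 0.0023), with 1 call on each array, and the block changed no other call; same-numbered samples correlated above 0.1 in 0 of 6 pairs (A) and 1 of 6 (B). A trimmed mean as a covariate on values without normalisation, added after the data were seen, gave 0.36 (limma adjusted p = 0.025) and 0.63 (limma adjusted p = 0.0092).

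The Chaf1b minus Chaf1a difference was 1.73 among replicates 3 to 6 (exact permutation p = 0.029, the smallest possible), -0.40 among replicates 1 and 2, and 0.75 to 1.51 with 1 sample left out. Signs turned for differences that had not passed. Chaf1a was at 0.48 among replicates 1 and 2. Hmgn3 was at -0.025 with arrays scaled to one trimmed mean, -0.035 among replicates 1 and 2, -0.0066 with array weights, -0.028 with the covariate and -0.018 to 0.025 with 1 sample left out. The dimmer Prdm15 probe set was at -0.34 among replicates 1 and 2 and -0.030 to 0.19 with 1 sample left out, and the brighter was at -0.12 among replicates 3 to 6. The dimmer Brwd1 probe set was at 0.10 with 64 added to each value, which shrinks dim genes by construction. The cause of the other shifts was not tested.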
